A study of Mus musculus with 8 samples.

Results

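Serotonin, noradrenaline and acetylcholine neurons lie beside or near the dopamine neurons of the midbrain, and 9 genes that define them were followed here in ribosome-bound messenger RNA of the mouse ventral tegmental area (VTA). The genes were taken by name from the 56691 genes of the deposited count table, and all 9 were found and passed the filter on low counts. They are Tph2, Slc6a4, Fev and Gata3 for serotonin, Chat, Slc18a3 and Slc5a7 for acetylcholine, and Dbh and Slc6a2 for noradrenaline. Mice of genotype Ogt flox+/Y (Ogt knockdown, a loss of the enzyme that attaches O-GlcNAc to proteins, n = 4 libraries, replicates 2, 3, 4 and 5) were compared with mice of genotype Ogt flox-/Y (control, n = 4 libraries, replicates 3, 4, 5 and 6). The VTA of both genotypes had been injected with a pair of viruses, AAV-TH-Cre together with AAV-Flex-NBL10. By its name the first virus carries Cre under a tyrosine hydroxylase promoter, and the HA-tagged ribosomal protein NBL10 is made only where Cre is active, so both the knockdown and the enrichment depend on which cells took up virus and used that promoter. The labels give neither age nor the number of animals behind a library. If the libraries are not separate animals, the p-values describe technical spread only.

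Serotonin neurons make their transmitter from tryptophan with TPH2, the rate-limiting enzyme, take it back up with the transporter SERT (Slc6a4), and owe their identity to transcription factors that include FEV (also called Pet1) and GATA3. They sit in the raphe nuclei, the most rostral of which border the VTA. Acetylcholine neurons make acetylcholine with choline acetyltransferase (Chat), load it into vesicles with VAChT (Slc18a3) and recover choline with a high-affinity transporter (Slc5a7). Near the VTA they lie in the oculomotor nucleus, the pedunculopontine nucleus and the laterodorsal tegmental nucleus. Noradrenaline neurons of the locus coeruleus use tyrosine hydroxylase as dopamine neurons do, and add dopamine beta-hydroxylase (Dbh) and the noradrenaline transporter (Slc6a2). Serotonin neurons lack tyrosine hydroxylase and share with dopamine neurons the decarboxylase DDC and the vesicular transporter VMAT2 (Slc18a2).

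Slc6a4 and Fev had the patterns over the libraries most like that of Tph2, and the stretches around the starts of these genes are therefore shown, from 250 bases before to 50 bases after the RefSeq start on the gene's strand (build GRCm38.p6). Of the 9 genes, 8 had an entry among the RefSeq promoters. Capitals mark matches on either strand to GGAAG, a core of sites for ETS factors such as FEV, or to GATAA, a core of sites for GATA factors such as GATA3. The intervals are chr10:115184973-115185272 (minus strand) for Tph2, chr11:76998347-76998646 (plus strand) for Slc6a4 and chr1:74885359-74885658 (minus strand) for Fev.
Tph2: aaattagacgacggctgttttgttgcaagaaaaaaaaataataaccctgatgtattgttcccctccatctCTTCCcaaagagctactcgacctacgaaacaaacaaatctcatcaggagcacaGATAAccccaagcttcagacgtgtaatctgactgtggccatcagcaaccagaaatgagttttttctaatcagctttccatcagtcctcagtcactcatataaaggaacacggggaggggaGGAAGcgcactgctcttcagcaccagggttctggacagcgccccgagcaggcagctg
Slc6a4: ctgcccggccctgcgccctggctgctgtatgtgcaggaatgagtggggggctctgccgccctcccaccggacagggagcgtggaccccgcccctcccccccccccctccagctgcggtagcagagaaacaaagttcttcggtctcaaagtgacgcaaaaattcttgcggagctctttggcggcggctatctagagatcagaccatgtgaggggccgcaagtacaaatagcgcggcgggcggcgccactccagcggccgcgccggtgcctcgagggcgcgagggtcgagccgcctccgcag
Fev: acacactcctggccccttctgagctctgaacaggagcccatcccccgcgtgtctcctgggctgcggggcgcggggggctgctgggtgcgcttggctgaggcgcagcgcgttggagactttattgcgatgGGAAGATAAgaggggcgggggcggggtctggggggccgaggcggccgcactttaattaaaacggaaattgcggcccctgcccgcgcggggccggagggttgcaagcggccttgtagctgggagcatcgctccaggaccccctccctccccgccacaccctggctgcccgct
The Tph2 window held 2 matches to GGAAG and 1 to GATAA. The Fev window held 1 of each, and they share 1 base. The Slc6a4 window held 0 of either, which says only that these letters do not occur in it. Of 32851 mouse promoter windows of the same length, 71.4% held GGAAG and 25.4% held GATAA, so a match by itself is common.

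In the build of the count table (GRCm39, GENCODE vM30), Tph2 (ENSMUSG00000006764.9) lies at chr10:114914546-115020927 on the minus strand and Slc6a4 (ENSMUSG00000020838.13) at chr11:76889429-76923166 on the plus strand. Fev (ENSMUSG00000055197.5) lies at chr1:74920668-74924578 and Gata3 (ENSMUSG00000015619.11) at chr2:9861889-9894845, both on the minus strand. Gata3 shares 155 exonic bases with the antisense gene Gm13256 and 77 with 9230102O04Rik, which lies on the same strand as Gata3. Reads were counted without strand, so reads over the bases shared with Gm13256 cannot be assigned to one gene. Strand could not separate reads over the bases shared with 9230102O04Rik in any case. Slc18a3 (ENSMUSG00000100241.2, chr14:32184395-32186807) lies within Chat (ENSMUSG00000021919.9, chr14:32130160-32187946) on the same minus strand, 1139 bases from the 5′ end of Chat, and the exons of the 2 genes share 0 bases. Slc5a7 (ENSMUSG00000023945.8) lies at chr17:54580618-54606062 on the minus strand. Dbh (ENSMUSG00000000889.9) lies at chr2:27055245-27073212 and Slc6a2 (ENSMUSG00000055368.15) at chr8:93686707-93728295, both on the plus strand.

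Libraries held 49802305 to 147747191 reads assigned to genes. Levels are given as TMM-scaled CPM, the read count relative to library size. The targeted gene Ogt was lower in the knockdown libraries, at 35.99 to 74.4 CPM against 108.3 to 159.4, with means of 49.8 ± 17.0 and 126 ± 22.8 (SD, n = 4 each; edgeR quasi-likelihood adjusted p = 0.00243). The label of dopamine neurons was checked against 6 markers (Th, Slc6a3, Slc18a2, Ddc, Nr4a2 and Pitx3). Their summed level was 1112 to 2436 CPM in controls and 321 to 514.7 in knockdown. The summed level of 8 pan-neuronal markers was 6434 to 7713 CPM in controls and 2778 to 3410 in knockdown, and 7 of the 8 fell. Astrocyte, oligodendrocyte and microglia markers (8 each) were present in every library. The summed astrocyte level was 664.5 to 3790 CPM in controls and 7889 to 11984 in knockdown, with 3 of 8 called higher. The oligodendrocyte level was 1225 to 1822 and 1898 to 4356 CPM (4 of 8 higher), and the microglia level 25.9 to 43.8 and 44.6 to 115.6 CPM (6 of 8 higher). Of all genes tested, 15.1% were called lower and 13.4% higher. Control replicate 3 stood apart from the other controls. It had the highest dopamine neuron sum (2436 CPM, others 1112 to 1392), the lowest astrocyte sum (664.5, others 2244 to 3790) and an endothelial sum of 955.7 CPM (others 11.4 to 18.9), and its Cldn5 level was 150.8 CPM (others 1.93 to 2.88). Fold changes of the 9 genes are therefore also given without it. In that fit the log2 fold change of Ogt was -1.21 (edgeR adjusted p = 0.0022). There, 6 of 8 astrocyte, 6 of 8 oligodendrocyte and 7 of 8 microglia markers were called higher. So were 6 of 8 endothelial and 3 of 4 pericyte markers, against 18.1% of all genes tested.

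**Figure D1:**
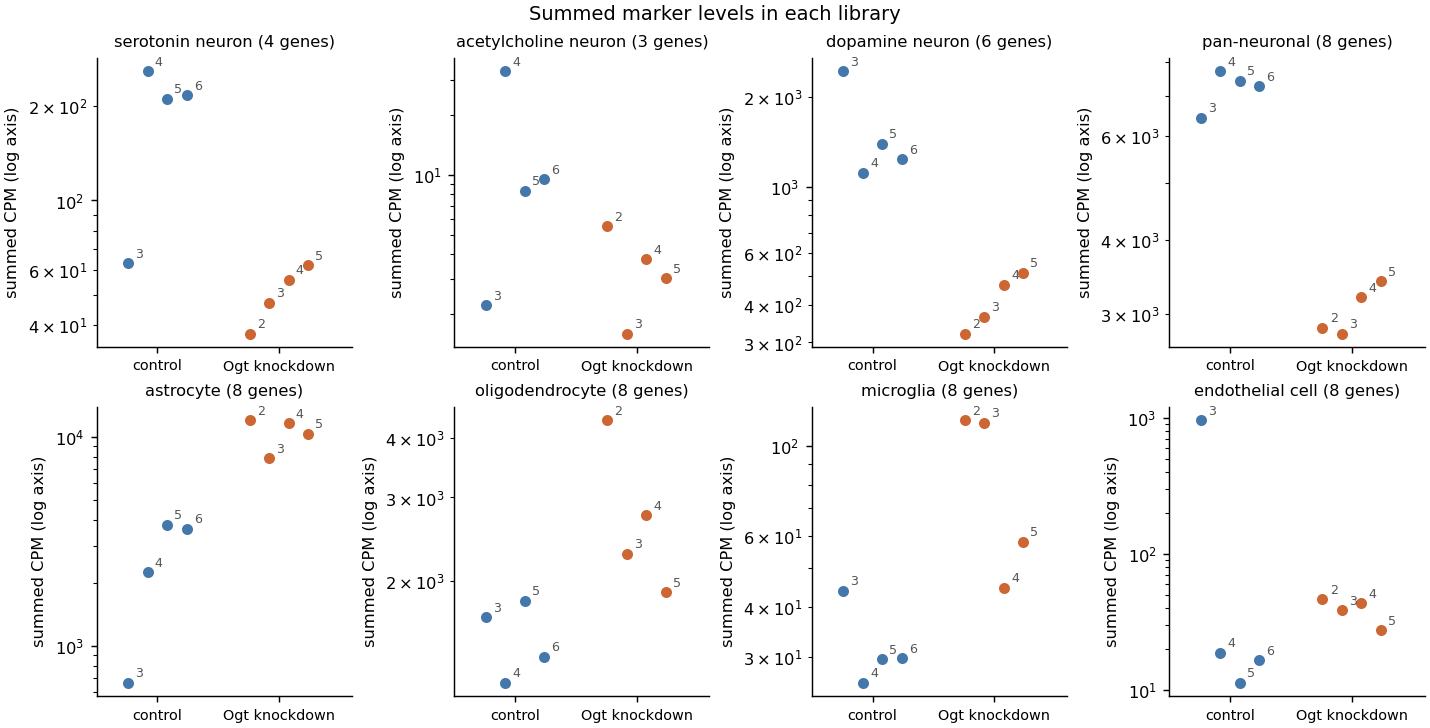
Summed TMM-scaled CPM of marker genes in each library (log axis), with points numbered by replicate, for control (left) and Ogt knockdown (right). Control replicate 3 sits at 63.2 CPM for the 4 serotonin genes, near the knockdown range of 37.5 to 62.1, but at 2436 CPM for the 6 dopamine neuron markers, above every other library.

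Of the 4 serotonin genes, 3 fell in the Ogt knockdown libraries, and the gene of the synthetic enzyme had the largest fitted fold change among them. Tph2, Slc6a4 and Fev were called lower, by 6.31-fold, 3.74-fold and 4.45-fold, while Gata3 did not pass the test with all 8 libraries. With acetylcholine and noradrenaline genes included, 4 of the 9 genes were called lower and 0 higher, against 15.1% of 19912 genes tested called lower. By edgeR, 13.4% of genes tested were called higher, and 28.5% in either direction. The median log2 fold change was -1.78 over the 9 genes and 0.002 over all genes tested. Without control replicate 3, 7 of the 9 were called lower, against 16.8% of 20626 genes tested (18.1% were called higher and 34.9% in either direction), and the median was -2.13 against 0.06. Without control replicate 4, the highest library for the acetylcholine genes, the median over the 9 genes was -0.908. In such bulk libraries, fewer cells of a type and less message per cell cannot be told apart. Whether the messages of these 9 genes came from cells that carried the tag was not tested.

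Tph2 was measured at 31.3, 159.7, 125 and 129.9 CPM in control replicates 3, 4, 5 and 6, and at 9.84, 15.7, 23.3 and 21.8 CPM in knockdown replicates 2, 3, 4 and 5. Every knockdown library lay below every control library, and control replicate 3 lay far nearer to the knockdown libraries than to the other controls. Means were 111 ± 55.6 CPM in control and 17.7 ± 6.18 in knockdown (SD, n = 4 each). On the log2 scale the fitted difference was -2.66 with an SE of 0.47 (edgeR adjusted p = 0.00384). Without control replicate 3 the log2 fold change was -2.97 (SE 0.26, edgeR adjusted p = 9.1e-05). The gene had 866 to 18362 reads per library, so counting error is small beside the spread between libraries.

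Slc6a4, the serotonin transporter, had 16.8, 54.4, 44.5 and 48.5 CPM in control replicates 3 to 6 and 6.36, 8.58, 14.3 and 14.7 CPM in knockdown replicates 2 to 5. The groups did not overlap, although control replicate 3 exceeded the highest knockdown library only narrowly. The log2 fold change was -1.90 (SE 0.39, edgeR adjusted p = 0.00615), and -2.16 (SE 0.27, edgeR adjusted p = 0.000358) without control replicate 3. Across the 9 genes, Tph2 and Slc6a4 were the 2 whose groups did not overlap in this direction, which 18.0% of all genes tested showed (35.1% in either direction). Without control replicate 3, 7 of the 9 did so, against 23.2%.

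Fev, the ETS factor that marks serotonin neurons, had 1.33, 12.2, 9.61 and 8.997 CPM in control replicates 3 to 6. The knockdown libraries had 1.43, 1.92, 1.67 and 2.20 CPM. Control replicate 3 lay below all of them, and the other controls lay well above, so the groups overlapped through that library alone. The log2 fold change was -2.15 (SE 0.53, edgeR adjusted p = 0.0145), and -2.51 (SE 0.21, edgeR adjusted p = 7.72e-05) without control replicate 3.

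Gata3, a zinc finger factor of serotonin neurons that midbrain GABA neurons also use, had the smallest fold change of the 4. It had 13.7, 32.4, 32.5 and 29.9 CPM in control replicates 3 to 6 and 19.9, 20.9, 16.5 and 23.4 CPM in knockdown replicates 2 to 5. Control replicate 3 was the lowest of all 8 libraries and the other controls were the 3 highest. The log2 fold change was -0.43 (SE 0.26, edgeR adjusted p = 0.238). Without control replicate 3 Gata3 passed the test as lower (log2 fold change -0.65, SE 0.14, edgeR adjusted p = 0.00522). The 3 GABA neuron markers Gad1, Gad2 and Slc32a1 were all called lower, from a summed level of 628.6 to 1083 CPM in controls to 365.2 to 543 in knockdown. In the same libraries the glial sums given above were higher and the pan-neuronal sum lower, and their part in the serotonin results was not tested.

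**Figure D2:**
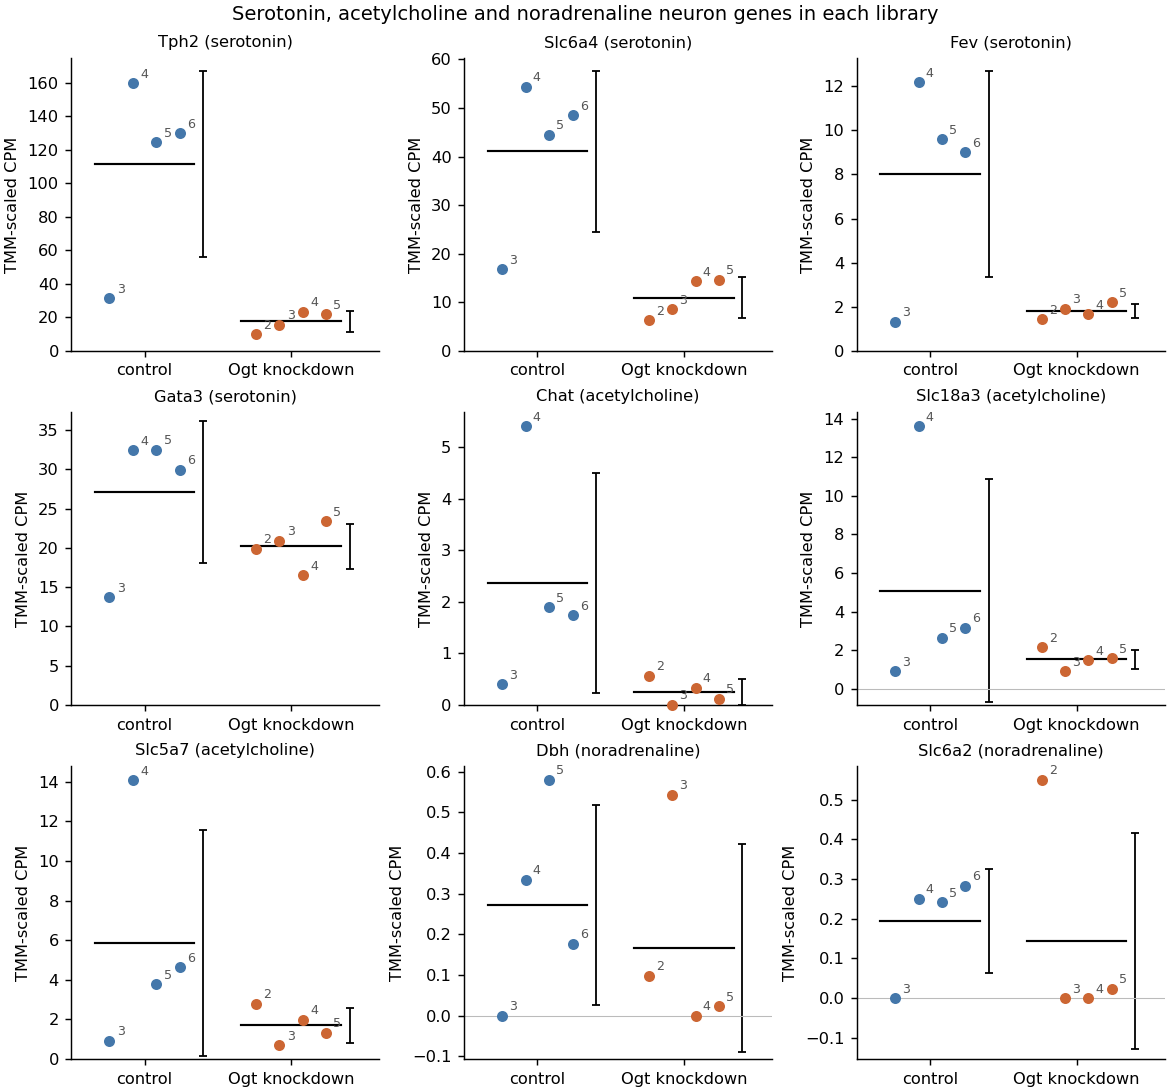
TMM-scaled CPM of each gene in each library, with points numbered by replicate, lines at the group means and error bars of 1 SD (n = 4). Control replicate 3 is the lowest control in all 9 panels, and control replicate 4 is far the highest for Chat, Slc18a3 and Slc5a7.

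Acetylcholine genes were expressed at low levels, and with all 8 libraries Chat alone among them was called lower. Chat, the synthetic enzyme, had 0.406, 5.41, 1.89 and 1.74 CPM in control replicates 3 to 6, and 0.57, 0, 0.333 and 0.118 CPM in knockdown replicates 2 to 5. The value of 0 is 0 of 55397971 reads, which allows up to 0.0543 CPM. Control replicate 4 was the highest library, and control replicate 3 lay inside the knockdown range. The log2 fold change was -3.16 (SE 1.02, edgeR adjusted p = 0.0435). That call was lost without control replicate 4 (log2 fold change -2.40, adjusted p = 0.121), control replicate 5 (-3.26, 0.0694), control replicate 6 (-3.29, 0.0731), knockdown replicate 4 (-3.33, 0.0923) or knockdown replicate 5 (-2.95, 0.105). It was kept without knockdown replicate 2 (log2 fold change -3.94, edgeR adjusted p = 0.0455).

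Slc18a3, the vesicular acetylcholine transporter, had 0.893, 13.6, 2.64 and 3.15 CPM in control replicates 3 to 6 and 2.14, 0.905, 1.47 and 1.58 CPM in knockdown replicates 2 to 5. Slc5a7, the choline transporter, had 0.92, 14.1, 3.78 and 4.63 CPM in controls and 2.79, 0.688, 1.97 and 1.32 CPM in knockdown, in the same order of replicates. For both genes control replicate 4 was far above every other library. Control replicate 3 lay just below the knockdown libraries for Slc18a3 and among them for Slc5a7. Neither gene passed the test, with a log2 fold change of -1.73 for Slc18a3 (SE 0.71, adjusted p = 0.099 by edgeR) and of -1.78 for Slc5a7 (SE 0.72, adjusted p = 0.0961 by edgeR). Without control replicate 3 both passed as lower, at -2.07 (edgeR adjusted p = 0.0144) and -2.13 (edgeR adjusted p = 0.011), as did Chat at -3.49 (edgeR adjusted p = 0.00858). Without control replicate 4 the values were -0.58 for Slc18a3 and -0.91 for Slc5a7. The summed level of the 3 genes was 2.22 CPM in control replicate 3, 33.1 in control replicate 4 and 8.31 and 9.52 in control replicates 5 and 6, against 1.59 to 5.50 in knockdown.

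Noradrenaline genes were near the limit of detection. Dbh had 0, 0.334, 0.58 and 0.177 CPM in control replicates 3 to 6 and 0.0983, 0.543, 0 and 0.0236 CPM in knockdown replicates 2 to 5. Slc6a2 had 0, 0.251, 0.242 and 0.283 CPM in controls and 0.55, 0, 0 and 0.0236 CPM in knockdown, in the same order. These levels rest on at most 72 reads of Dbh and 56 reads of Slc6a2 in any library. A count of 3 reads corresponds to 0.0212 to 0.0626 CPM, and 2 knockdown libraries for Dbh and 3 for Slc6a2 held 3 reads or fewer. Control replicate 3, which had the most Th of all libraries (1241 CPM), had 0 reads of either gene. Neither passed the test, with log2 fold changes of -0.76 for Dbh (SE 1.36, edgeR adjusted p = 0.714) and -0.39 for Slc6a2 (SE 1.46, edgeR adjusted p = 0.869), and without control replicate 3 the values were -1.19 (adjusted p = 0.464) and -0.79 (adjusted p = 0.682). SEs this large leave changes of several fold undetectable in these libraries.

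**Figure D3:**
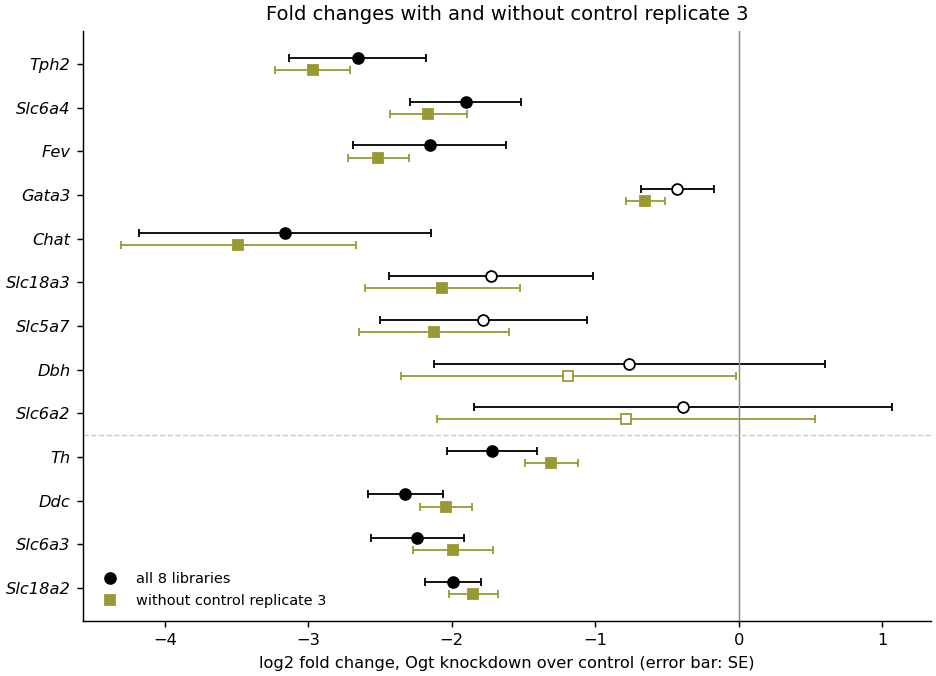
Log2 fold change of each gene (Ogt knockdown over control, error bar 1 SE) with all 8 libraries (circles) and without control replicate 3 (squares), where filled symbols have an edgeR adjusted p under 0.05. Leaving out control replicate 3 moves the serotonin and acetylcholine genes further from 0, and the 4 dopamine neuron genes under the dashed line (Th, Ddc, Slc6a3 and Slc18a2) nearer to it.

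Control replicate 3 was the lowest control for all 9 genes, whereas it was the lowest control for 41.9% and the highest for 40.3% of all genes tested. For the dopamine neuron genes Th, Ddc, Slc6a3, Slc18a2 and Gch1 it was the highest control. The level of Tph2 per kilobase of exon was 2.07% of that of Th in control replicate 3. It was 16.5% to 30.2% in control replicates 4 to 6 and 4.49% to 9.09% in knockdown. The level of Slc6a4 per kilobase was 3.3% of that of Slc6a3, the dopamine transporter, in control replicate 3. In control replicates 4 to 6 it was 13.4% to 22.4% and in knockdown 12.3% to 18.8%, so these ranges overlapped.

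Whether 2 genes changed by the same factor was tested on their ratio within each library, which does not depend on scaling. For 11 ratios the log2 ratios of the groups were compared by an exact two-sided permutation test over the 70 assignments of the libraries, whose smallest possible p is 0.0286, with Benjamini-Hochberg adjustment over the 11. None passed after adjustment, and 4 reached the smallest p. With 4 ratios at that p the adjusted value was 0.0786, so even groups that separate fully could not pass here. Failure to pass after adjustment therefore does not show that a ratio stayed the same. Slc6a4 relative to Tph2 had log2 ratios of read counts of -0.89, -1.55, -1.49 and -1.42 in control replicates 3 to 6 and of -0.63, -0.87, -0.70 and -0.57 in knockdown replicates 2 to 5. The ratio was higher in every knockdown library, with knockdown replicate 3 only just above control replicate 3, and the means differed by 0.65 on the log2 scale (exact permutation p = 0.0286, adjusted 0.0786; 0.79 without control replicate 3). Gata3 relative to Tph2 was higher in every knockdown library by 2.14 (exact permutation p = 0.0286, adjusted 0.0786). The difference was 2.38 without control replicate 3. The log2 ratio of Gata3 to Tph2 was -2.30 to -1.19 in controls and -0.50 to 1.02 in knockdown. Fev relative to Tph2 differed by 0.72, and here the groups overlapped (exact permutation p = 0.0857, adjusted 0.189; 0.52 without control replicate 3).

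Within the acetylcholine genes, Chat was lower relative to its partners in every knockdown library. Both ratios reached the smallest possible p, which could not pass after adjustment. The log2 ratio of Slc18a3 to Chat was 0.48 to 1.33 in controls and 1.90 to 6.66 in knockdown, a difference of 2.64 (exact permutation p = 0.0286, adjusted 0.0786). That of Slc5a7 to Chat was 1.24 ± 0.19 (SD, n = 4) in controls and 2.28 to 6.27 in knockdown, a difference of 2.39 (exact permutation p = 0.0286, adjusted 0.0786). The highest value of each comes from knockdown replicate 3, which had 0 reads of Chat beside 50 of Slc18a3 and 38 of Slc5a7, so its size depends on the prior count of 0.5 added to each count. Without that library the differences were 1.62 and 1.51.

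Ratios to dopamine neuron genes depended on control replicate 3. The log2 ratio of Tph2 to Th was -5.31 in that library. It was -2.31 to -1.45 in control replicates 4 to 6 and -4.19 to -3.18 in knockdown. With it the groups differed by -0.88 (exact permutation p = 0.371, adjusted 0.584). Without it every knockdown library lay below every control, by 1.72 on average. Tph2 relative to Ddc differed by -0.21 (exact permutation p = 0.914). Without control replicate 3 the difference was -0.97, and every knockdown library again lay below every control. Without control replicate 4 the sign turned (0.11). Slc6a4 relative to Slc6a3 differed by 0.42 (exact permutation p = 0.743), and by -0.17 without control replicate 3, with overlapping groups in both cases. Groups also overlapped for Chat relative to Th (-2.14, exact permutation p = 0.286) and Tph2 relative to Chat (1.26, exact permutation p = 0.486). The same held for Slc6a2 relative to Dbh (-0.63, exact permutation p = 0.886). Single libraries moved all 3. Leaving out 1 library gave -3.12 (without control replicate 3) to -0.95 (without knockdown replicate 3) for Chat to Th. For Tph2 to Chat it gave 0.04 (without knockdown replicate 3) to 2.26 (without knockdown replicate 2). For Slc6a2 to Dbh the sign turned, from -1.73 without knockdown replicate 2 to 1.05 without knockdown replicate 3. Control replicate 3 and knockdown replicate 4 had 0 reads of both Slc6a2 and Dbh. The log2 ratio of 0.00 in each of these libraries comes from the prior count alone.

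**Figure D4:**
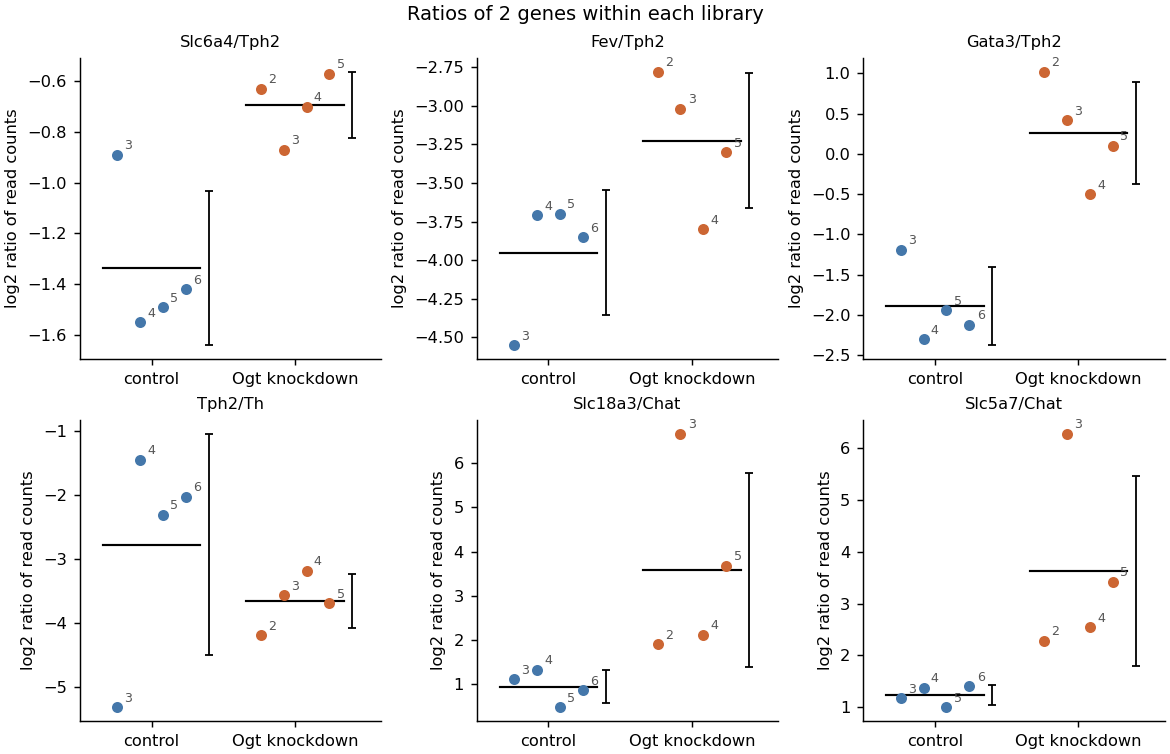
Log2 ratio of the read counts of 2 genes within each library, with points numbered by replicate, lines at group means and error bars of 1 SD (n = 4). The groups separate for Slc6a4, Gata3 and the acetylcholine ratios, while for Tph2 to Th control replicate 3 (-5.31) lies below all knockdown libraries.

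Levels were set in order per kilobase of exon. In controls Tph2 had 38.7 ± 19.3 CPM per kilobase (SD, n = 4), Slc6a4 9.06 ± 3.68, Gata3 6.82 ± 2.27 and Fev 4.97 ± 2.89. Slc18a3 followed with 2.11 ± 2.40, Slc5a7 with 1.04 ± 1.01, Chat with 0.502 ± 0.454, Dbh with 0.101 ± 0.0914 and Slc6a2 with 0.0308 ± 0.0207 CPM per kilobase. Tph2 exceeded Slc6a4 in every library. From Slc6a4 down each mean lay within 1 control SD of the next, but the order down to Dbh was the same within each control library. Control replicate 3 had 0 reads of Dbh and of Slc6a2, so it does not order these genes. In knockdown Tph2 was still first with 6.14 ± 2.15 CPM per kilobase and Gata3 came next with 5.07 ± 0.718, a gap smaller than the SD of Tph2. Slc6a4 had 2.42 ± 0.918 and Fev 1.12 ± 0.207 CPM per kilobase in knockdown, both below Gata3 in each of those 4 libraries. For comparison, Th had 299 ± 153.9 CPM per kilobase in controls and 90.7 ± 20.01 in knockdown.

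Genes whose pattern over the 8 libraries was most like that of Tph2 were sought among 13283 named genes with a mean log2 CPM above 0, by the root mean square difference of log2 CPM centred on each gene's mean. The nearest were Slc6a4 (0.38), Fev (0.51) and Slc22a3 (0.58), which encodes an organic cation transporter that carries monoamines. Slc22a3 had 3.41, 8.31, 5.45 and 4.91 CPM in control replicates 3 to 6 and 0.894, 1.41, 2.61 and 1.76 CPM in knockdown replicates 2 to 5. It was lower in every knockdown library (3.30-fold, edgeR adjusted p = 0.00824). Gata3 came at place 1785 (1.18). The genes nearest to Chat were Hspa1l (1.09), Arl10 (1.10) and Pcdhac2 (1.17), and Slc5a7 came at place 6 (1.26). These had in common with Chat a low value in knockdown replicate 3, at 0.0362 CPM for Hspa1l, 1.92 for Arl10 and 0.181 for Pcdhac2. The genes nearest to Dbh were Qrfpr (1.25), Capn11 (1.26) and Gchfr (1.28), at distances that, with so few Dbh reads, describe little.

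Other genes of the same pathways were taken from 4 lists of 52 genes, of which 45 passed the filter on low counts. By edgeR 20 fell and 5 rose, against 15.1% of all genes tested called lower and 13.4% called higher. The 5 that rose are thus no larger a share than among all genes. Without control replicate 3, 24 of 47 tested fell and 5 rose, against 16.8% of all genes tested called lower and 18.1% called higher. The folds of some were smaller in that fit, such as 2.06 for Foxa2 and 2.47 for Th. Of 17 further serotonin genes, 8 fell and 1 rose. Htr1d, a serotonin autoreceptor and heteroreceptor, fell 5.82-fold (edgeR adjusted p = 0.000447), and Htr1b, a related receptor, fell 1.73-fold. Slc22a3 fell 3.30-fold. The developmental factors En1 (3.38-fold), Foxa2 (3.08-fold), Nkx6-1 (2.68-fold), Gata2 (2.45-fold) and Insm1 (1.65-fold) fell as well. Several of these also belong to midbrain dopamine or GABA neurons, and for En1, Foxa2, Nkx6-1, Gata2 and Htr1d control replicate 3 was the highest control, the opposite of Tph2. Foxa2 had 46.1 CPM there, against 13.97 to 16.4 in the other controls and 6.66 to 9.55 in knockdown. Nkx2-2, which oligodendrocyte precursors use too, rose 1.64-fold, and did not pass without control replicate 6, knockdown replicate 4 or knockdown replicate 5 (edgeR adjusted p = 0.0518, 0.0755 and 0.0535). Insm1 did not pass without control replicate 4, control replicate 6 or knockdown replicate 2 (edgeR adjusted p = 0.0641, 0.0787 and 0.0661). Lmx1b, En2, Htr1a, Htr5b, Maoa, Maob and Tph1 were among those that did not pass. Htr1a, the somatic autoreceptor of serotonin neurons, passed as lower without control replicate 3 (log2 fold change -0.65, edgeR adjusted p = 0.02).

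Of 15 further acetylcholine genes, 12 were tested, 5 fell and 2 rose, where 15.1% of all genes tested fell and 13.4% rose. Ache, the enzyme that breaks down acetylcholine, fell 5.21-fold (log2 fold change -2.38, SE 0.20, edgeR adjusted p = 0.000136). It had 527.7, 331, 330 and 317 CPM in control replicates 3 to 6 and 63.7, 63.6, 79.3 and 82.6 CPM in knockdown replicates 2 to 5, and dopamine neurons are known to express it. Colq, a collagen tail that anchors the enzyme, fell 3.37-fold and Prima1, its membrane anchor, 1.94-fold. Slc10a4, a vesicular protein of cholinergic and monoaminergic neurons, fell 2.93-fold, and Chrm2, a muscarinic autoreceptor, 1.75-fold. Slc44a1, a choline transporter of many cell types, rose 1.59-fold and Ngfr, the p75 neurotrophin receptor, 2.18-fold. The calls of Chrm2 (edgeR adjusted p = 0.0512 to 0.0603 without control replicate 4, 5 or 6) and Prima1 (0.0501 and 0.0559 without control replicate 5 or 6) depended on single libraries. The motor neuron genes Isl1 and Prph did not pass, and Mnx1, Tbx20 and Lhx8 were too low to be tested.

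Of 11 further noradrenaline genes, 7 were tested, 2 fell and 1 rose, numbers too small to set against the shares of 15.1% and 13.4% among all genes. Cyb561, which supplies electrons to DBH inside vesicles of many secretory cells, fell 1.89-fold (edgeR adjusted p = 0.00103). Adra2a, a noradrenaline receptor, rose 1.52-fold. Adra2a did not pass without knockdown replicate 4 (edgeR adjusted p = 0.0509). Phox2a, Tfap2a, Tfap2b and Gal did not pass.

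Of 9 genes shared by the monoamine neurons, 5 fell and 1 rose, beside the same shares of 15.1% and 13.4% among all genes. Ddc fell 5.01-fold, Slc6a3 4.72-fold, Slc18a2 3.98-fold and Th 3.30-fold. Gch1, which begins the synthesis of the tetrahydrobiopterin cofactor that TPH2 and tyrosine hydroxylase need, fell 2.97-fold. Pts, the next enzyme of that synthesis, rose 1.45-fold, and did not pass without control replicate 6, knockdown replicate 2 or knockdown replicate 5 (edgeR adjusted p = 0.0844, 0.0516 and 0.0608). Spr, Qdpr and Gchfr did not pass, although Qdpr (edgeR adjusted p = 0.0484) and Gchfr (0.00301) passed as lower without control replicate 3. The median log2 fold change was -0.50 for the further serotonin genes, -0.50 for the further acetylcholine genes, 0.53 for the further noradrenaline genes and -1.57 for the shared genes, over those tested. These medians were -0.65, -0.34, -0.07 and -1.28 without control replicate 3, so that of the noradrenaline genes turned its sign, over 9 genes tested in place of 7.

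**Figure D5:**
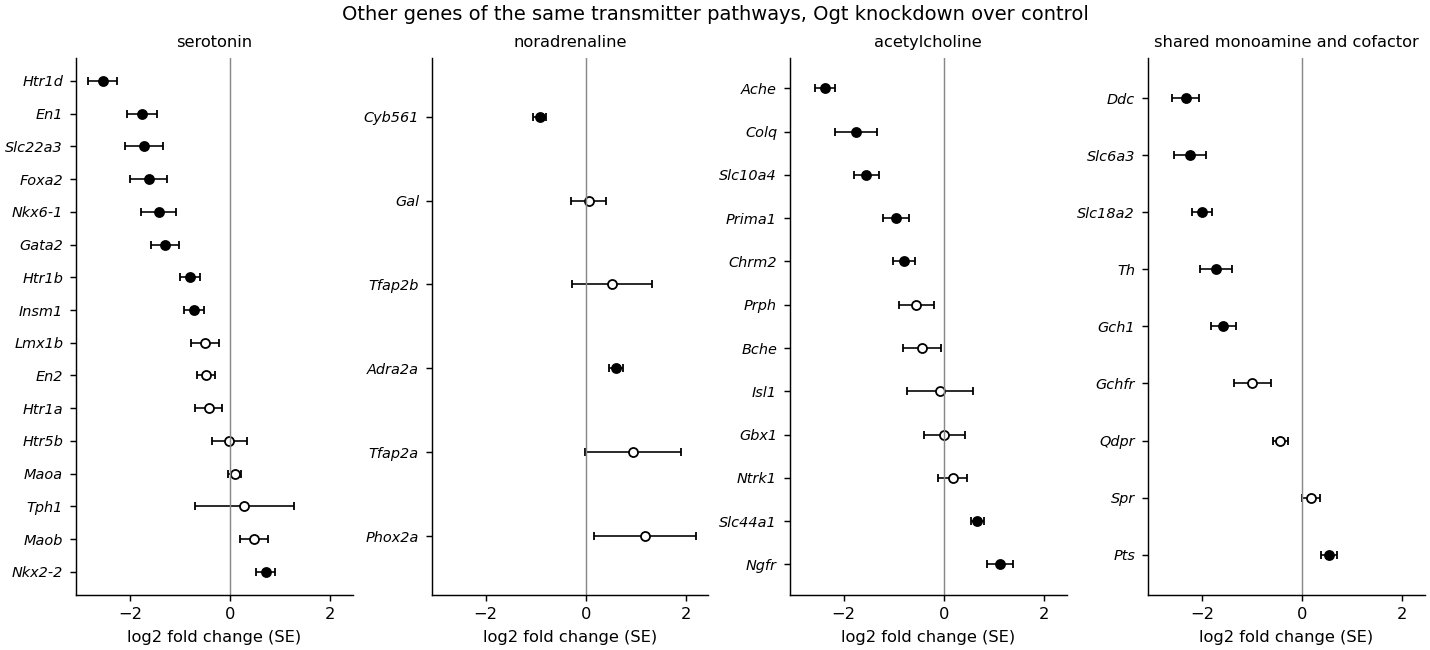
Log2 fold change (Ogt knockdown over control, error bar 1 SE, n = 4 libraries a group) of genes of the 4 pathway lists, where filled points have an edgeR adjusted p under 0.05. Htr1d and Ache have the lowest values of their lists, at -2.54 and -2.38.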

How the data were processed

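Read counts per gene in 8 libraries of ribosome-associated mRNA were deposited by the authors as 1 table of raw counts, made with featureCounts 2.0.3 over exons of GENCODE vM30, per the file headers. The command there names no option for strand, for counting read pairs or for reads with several alignments, so both mates of a fragment can count and floors cover counting error only. The deposited table's exonic lengths, in bases, were used per kilobase. Per the submitters' processing notes, FastQC, Trimmomatic and STAR were used, with build mm10. GENCODE vM30 describes GRCm39, and this conflict was not resolved. Symbols were matched by gene ID (52073 of 56691). Replicates were checked for duplicates (chi-square per degree of freedom of 25.0 to 463 within groups, so none).

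Genes passing filterByExpr (19912) were TMM-scaled and tested with edgeR 4.0.16 (robust quasi-likelihood F test, two-sided, R 4.3.3), with Benjamini-Hochberg adjustment over all of them and a threshold of 0.05. SEs are the log2 fold change over the square root of F. Ratios used log2 counts with a prior count of 0.5. Named genes were the 9 genes, Ogt, Th, Slc6a3, Ddc, Slc18a2, called genes of the pathway lists, defining markers of other cells, exceptions to a count and the 3 nearest patterns to Tph2, Chat and Dbh. The genes and lists were chosen with earlier results of these data known. Alternatives were RLE and upper quartile scaling, other filters, DESeq2 1.42.0, the replicate number as a block and leaving out each library. A few genes of the pathway lists enter the counts and are not reported here by name.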

Additional observations from a re-analysis of the deposited data

Results flagged for a closer look

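Of 40 sets of 4 values checked (9 genes and 11 ratios in each group), 5 had a library far from the other 3, and chance alone marks about 1 in 20. Control replicate 3 was far below the other controls for Gata3 (13.7 CPM), for Slc6a2 (0 CPM) and for the log2 ratio of Tph2 to Ddc (-3.84). Knockdown replicate 2 was far above the other knockdown libraries for Slc6a2 (0.55 CPM). Control replicate 4 was far below the other controls for the log2 ratio of Tph2 to Chat (4.88). No explanation of these values was tested.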

How the results depend on the processing

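Tph2 and Slc6a4 kept their direction and their call under all 14 alternative fits. Fev lost its call with the replicate number as a block (log2 fold change -1.57, edgeR adjusted p = 0.231) and kept it otherwise. Chat lost its call with no filter on low counts (adjusted p = 0.131), where its log2 fold change was -3.21 and was not tested under the strict filter. DESeq2 called Slc18a3 and Slc5a7 lower as well (adjusted p = 0.0241 and 0.0195). None of the 9 genes was called higher under any of these fits, and those called lower numbered 3 to 7 when 1 library was left out, 7 without control replicate 3. Over all genes, leaving out 1 library gave 3876 to 7198 calls, 1684 to 3723 higher and 2140 to 3475 lower, and 17 to 24 pathway list genes lower and 3 to 5 higher. With the replicate block, 1258 genes were called, 480 higher and 778 lower, and 8 pathway list genes fell and 0 rose. Control replicate 6 and knockdown replicate 2 share no number with the other group. The group difference in that fit therefore rests on replicates 3, 4 and 5. Same-numbered libraries deviated together only weakly (correlations of 0.104, 0.099 and 0.042 for replicates 3, 4 and 5 over genes). Control replicates 3 and 4 correlated best with their own number. Control replicate 5 did so with knockdown replicate 4, by a narrow margin (0.044 against 0.042). Correlations this weak cannot decide whether same-numbered libraries were paired, so the fit with the replicate block cannot be set aside. With no filter 3 pathway list genes rose. By CPM without division by length, Slc5a7 (place 5) and Slc18a3 (place 6) changed places. Cldn5, an endothelial gene, turned from -2.55 to 1.55 on the log2 scale without control replicate 3 (edgeR adjusted p = 0.00194), and its lowest value with 1 library left out was -2.95. A prior count of 2 changed the differences of Slc18a3 and Slc5a7 relative to Chat to 2.10 and 1.85, and no ratio's p changed its side of 0.05. The cause of these changes was not tested. Chat, Dbh and Slc6a2 had the fewest reads and the largest SEs of the 9 genes, and their reads did not follow library size. Chat had 259 reads in control replicate 4 (49802305 reads in all) and 246 in control replicate 6 (147747191). Slc6a2 had 56 reads in knockdown replicate 2 and 0 in control replicate 3. Whether more depth would narrow these SEs was not tested.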
